A study of Fukomys damarensis and Heterocephalus glaber and Cavia porcellus with 28 samples.

Results

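The genes described here encode the nuclear subunits of mitochondrial complex I, the NADH:ubiquinone oxidoreductase, and were taken by name: every row of the heart and liver expression tables whose mouse symbol begins with Ndufa, Ndufab, Ndufb, Ndufc, Ndufs or Ndufv followed by a digit. The rule gave 35 genes of 13928 in each table. It leaves out the Ndufaf assembly factors and uses no measured value. By textbook assignment 7 of the 35 are core subunits, 7 are accessory subunits of the N module, 2 of the Q module, 6 of the proximal P module and 11 of the distal P module. Ndufa4 and Ndufa4l2 match the rule by name, but Ndufa4 is assigned to complex IV, and Ndufa4l2 is its paralogue. Ndufa1, Ndufa3, Ndufs5 and Ndufb1 were not analysed here.

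Complex I takes electrons from NADH and passes them along a chain of iron-sulphur clusters to ubiquinone, and it couples this transfer to the pumping of protons across the inner mitochondrial membrane. The N module binds NADH, the Q module binds ubiquinone, and both stand in the matrix on the P module, the membrane arm that pumps. The catalytic core is encoded partly in the nucleus and partly in mitochondrial DNA, and the accessory subunits, all nuclear, are needed for assembly and stability. Heart muscle is among the tissues richest in mitochondria and draws most of its ATP from respiration, while the liver is also rich in them but runs a wider range of other metabolism.

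Total RNA depleted of ribosomal RNA was sequenced from heart and liver of 4 rodent species, and the series asks how expression evolved in African mole-rats; the other rodents are the outgroups. Heart libraries came from 3 naked mole-rats (Heterocephalus glaber) aged 13 to 17 months, 5 Damaraland mole-rats (Fukomys damarensis) aged 36 or 48 months, 3 guinea pigs (Cavia porcellus) aged 2.3 months and 3 mice (Mus musculus) aged 2 months. Liver libraries came from 4, 5, 3 and 2 animals in the same order and at the same ages. The labels name 18 animals, of which 10 gave both tissues, and for 1 Damaraland animal they give 48 months with the heart and 36 months with the liver. All animals were male except 1 female among the Damaraland livers, and the labels name no treatment or altered gene. Age differs with species, so the age and the species of a group cannot be told apart.

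All values below are the deposited variance-stabilised values, a log2-like scale on which a gene with 0 reads stands at 5.36 in heart and 4.29 in liver, unless reads are stated. A difference of 1 is close to 2-fold for well-expressed genes: a 2-fold change moved the value by 0.946 in heart and 0.973 in liver from 1000 scaled reads (reads divided by the size factor of the library), but only by 0.282 and 0.392 from 10. The number of reads behind each value could be recovered. Libraries held 4089633 to 26985779 reads in heart and 11220505 to 21467939 in liver, and naked mole-rat heart replicate 3 was the shallowest. Whether the values contain a correction for differences in transcript length or annotation between species is not given in the sources used here. A difference between species in one tissue can therefore join expression with how many reads each species' reference collects for that gene. The share of each was not tested. A gene was called when its adjusted p from limma was under 0.05 and its difference was at least 1 in size. Errors of differences are standard errors from limma.

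The 35 genes together took the smallest share of reads in naked mole-rat hearts among hearts, and the largest in mouse livers among livers. Shares are of reads outside the mitochondrial genome. In heart the share was 0.942%, 0.898% and 0.824% in the naked mole-rat libraries. It was 1.38%, 1.44%, 1.57%, 1.06% and 1.08% in the Damaraland libraries, 1.13%, 1.02% and 1.13% in the guinea pig and 1.37%, 1.38% and 1.37% in the mouse. Every naked mole-rat heart was below every other heart, mouse hearts were above guinea pig hearts, and the Damaraland hearts spanned both. In liver the share was 0.277%, 0.301%, 0.329% and 0.340% in the naked mole-rat, 0.292%, 0.258%, 0.283%, 0.283% and 0.223% in the Damaraland mole-rat, 0.278%, 0.286% and 0.296% in the guinea pig, and 0.423% and 0.441% in the mouse. Both mouse livers were above all others, and the other 3 species overlapped. Without Ndufa4, which had 0 reads in the naked mole-rat and belongs to complex IV, the naked mole-rat livers (0.277% to 0.340%) were all above the guinea pig livers (0.255% to 0.260%). In heart the naked mole-rat stayed lowest without it, by a narrow margin, at up to 0.942% against 0.952% in the lowest guinea pig heart. Ndufab1, at 14 reads in all in the naked mole-rat hearts against 12075 in the guinea pig hearts, was still counted in these shares. In the lowest guinea pig heart its reads make up more than this narrow margin. Without both genes the naked mole-rat hearts are therefore not all below every other heart. In bulk tissue, fewer cells of a type and less RNA per cell cannot be told apart.

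**Figure D1:**
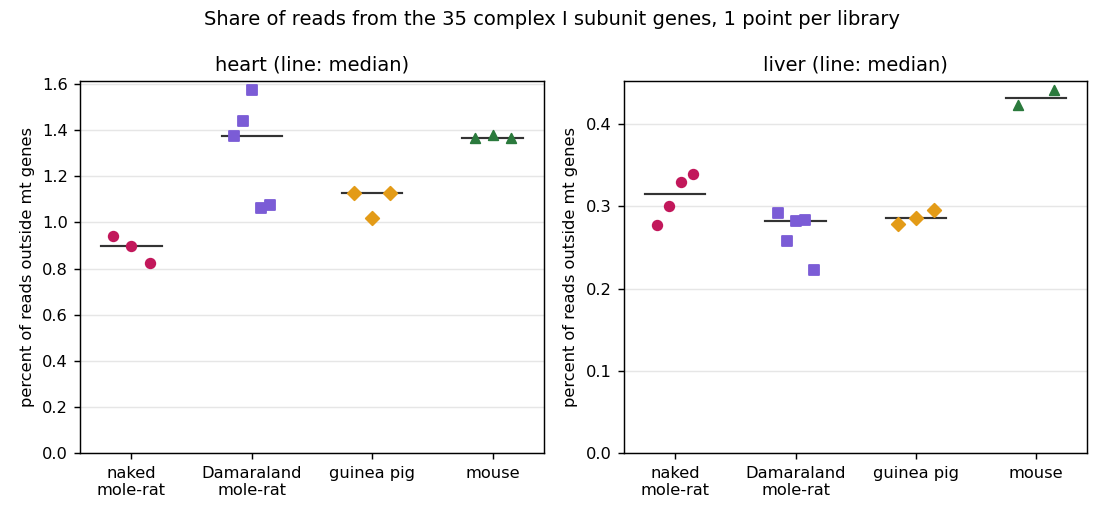
Share of reads outside the mitochondrial genome, in percent, that fell on the 35 genes, with 1 point per library and the species along the axis, for heart and liver. The naked mole-rat hearts, at 0.824% to 0.942%, lie below every other heart, and the mouse livers, at 0.423% and 0.441%, above every other liver.

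In heart most of the subunit genes were lowest in the naked mole-rat and most were highest in the mouse. By species mean, 23 of the 35 were lowest in the naked mole-rat, against 25.4% of all genes tested, and 20 were highest in the mouse, against 28%. Between naked mole-rat and mouse, 22 genes were lower (background of all 10667 genes: 20.2%) and 0 were higher (18.0%), with a median difference of -1.23 against -0.0024 for all genes. Between naked and Damaraland mole-rat, 15 were lower (15.2%) and 1 was higher (14.2%), with a median of -0.77.

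The guinea pig heart also stood below the mouse for 14 genes (16.9%) and above it for 0 (15.2%), with a median of -0.73, or -0.40 after quantile normalisation. Naked mole-rat against guinea pig gave 7 lower (17.0%) and 3 higher (16.0%). Damaraland mole-rat against guinea pig gave 7 higher (14.7%) and 4 lower (15.1%), and against mouse 8 lower (18.0%) and 1 higher (16.9%). These comparisons share libraries. The average contrast, mean of both mole-rats minus mean of guinea pig and mouse, gave 6 lower (12.6%) and 2 higher (10.8%). In each of these comparisons the count in the more frequent direction lay above its background share and the other count below it.

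**Figure D2:**
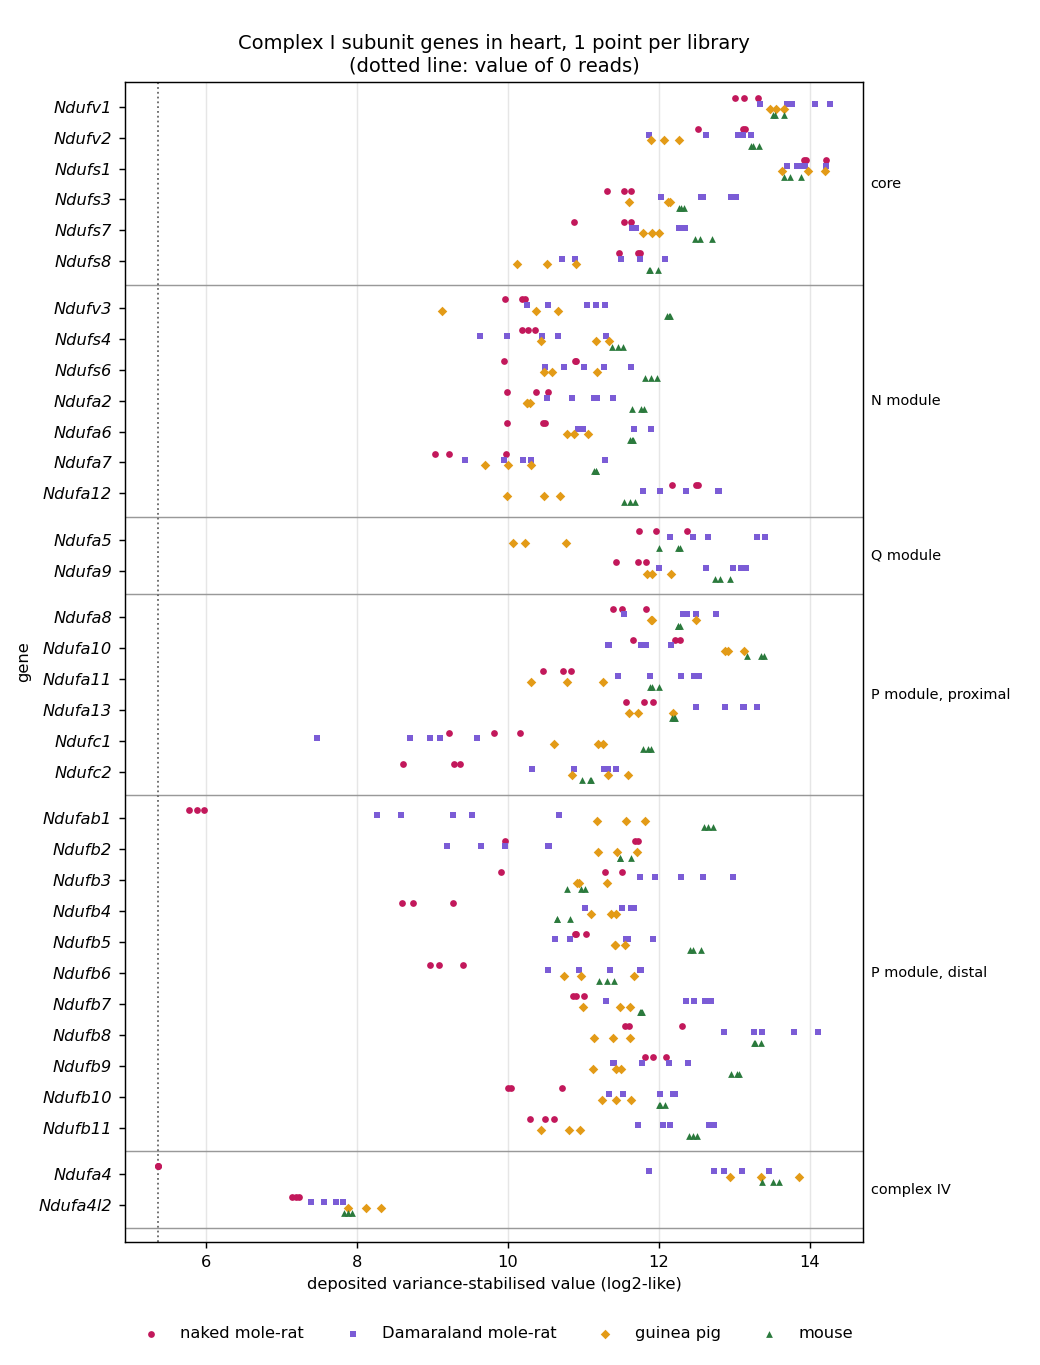
Deposited variance-stabilised value (log2-like) of 34 of the 35 genes in the 14 heart libraries, 1 point per library, grouped by module; the dotted line is the value of 0 reads. The naked mole-rat points lie to the left in most rows, Ndufa4 sits on the dotted line in the naked mole-rat, and the species lie close together for Ndufs1.

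The core subunits carry the cofactors. Ndufs7, which carries the last iron-sulphur cluster before ubiquinone, was lower in naked mole-rat than in mouse heart, with a difference of -1.23 (SE 0.23, adjusted p = 2.12e-04), or -0.996 without naked mole-rat replicate 3. It stood at 11.63, 11.53 and 10.87 in the naked mole-rat against 12.54, 12.49 and 12.71 in the mouse. Ndufs3 was called only in the pair with Damaraland, with a difference of -1.13 (SE 0.21, adjusted p = 1.70e-04).

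Ndufs1, the large iron-sulphur subunit of the N module, was the most even of all members in heart. Its values were 14.22, 13.96 and 13.93 in the naked mole-rat, 13.87, 13.94, 14.22, 13.84 and 13.70 in the Damaraland mole-rat, 13.63, 13.97 and 14.20 in the guinea pig and 13.67, 13.73 and 13.89 in the mouse. The naked mole-rat hearts were all above the mouse hearts, and the Damaraland and guinea pig hearts overlapped both. Its largest difference, naked mole-rat minus mouse, was 0.27 (95% interval -0.14 to 0.68), and the intervals of its 6 pairs ran from -0.39 to 0.68. Ndufv1, which binds NADH and the flavin, had no called pair either, with differences up to 0.68 in size. Ndufv2 and Ndufs8 were called lower in guinea pig than in mouse, with differences of -1.18 (SE 0.29, adjusted p = 0.00193) and -1.40 (SE 0.29, adjusted p = 5.83e-04). Ndufs8 was also higher in naked mole-rat than in guinea pig, 1.14 (SE 0.29, adjusted p = 0.00297), or 0.94 without guinea pig replicate 2.

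Among the matrix-arm accessory subunits, 6 of 7 in the N module were lower in naked mole-rat than mouse heart (background 20.2%). Of the same 7, 5 were lower in guinea pig than mouse heart (16.9%). Ndufv3, a small subunit at the NADH end, stood at 12.13, 12.15 and 12.11 in the mouse, against 10.22, 9.97 and 10.19 in the naked mole-rat. It stood at 10.25, 11.17, 11.28, 10.53 and 11.05 in the Damaraland mole-rat and 10.66, 9.12 and 10.37 in the guinea pig. Every mouse heart was above every other heart, the guinea pig range took in both mole-rats in part, and the naked mole-rat hearts lay just below the Damaraland hearts. Against the mouse the difference was -2.01 (SE 0.32, adjusted p = 4.13e-05) for the naked mole-rat, -1.27 (SE 0.29, adjusted p = 9.58e-04) for Damaraland and -2.08 (SE 0.32, adjusted p = 3.55e-05) for the guinea pig.

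The accessory subunits that went the other way were Ndufa12 and Ndufa5, the 2 genes higher in the mole-rats than the outgroups on average. Ndufa12, related to an assembly factor that holds its place during assembly, stood at 12.49, 12.52 and 12.18 in the naked mole-rat and 12.02, 12.78, 12.36, 12.80 and 11.80 in Damaraland. It stood at 10.69, 9.99 and 10.48 in the guinea pig and 11.54, 11.61 and 11.69 in the mouse. All mole-rat hearts were above all outgroup hearts, and the guinea pig was lowest. The average contrast was 1.37 (SE 0.17, adjusted p = 2.25e-06), made up of 2.01 (SE 0.25, adjusted p = 3.73e-06) between naked mole-rat and guinea pig and an uncalled 0.78 between naked mole-rat and mouse. Ndufa5, a Q-module subunit, was at 10.06, 10.23 and 10.77 in the guinea pig, below every other heart, and its Damaraland values were 12.16, 13.30, 13.41, 12.65 and 12.46. Its average contrast was 1.14 (SE 0.20, adjusted p = 8.29e-05), and naked mole-rat minus mouse was -0.16, and Ndufa5 was called in the guinea pig below each of the other 3 species, as was Ndufa12 (2 genes lower in guinea pig alone; background 2.62%).

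The membrane arm held the largest differences. In the distal P module, 8 of 11 genes were lower in the naked mole-rat than in Damaraland heart (background 15.2%). Against mouse heart 8 of 11 were lower as well (20.2%). In the proximal P module these counts were 3 and 4 of 6, with the same background shares. Those lower in the naked mole-rat than in each of the other 3 species were Ndufa4, Ndufab1, Ndufb10, Ndufb4, Ndufb6 and Ndufc2, 6 genes against a background of 4.14%. Ndufb4 and Ndufb10 are named after their values were seen, as are Ndufa6, Ndufb11 and the heart values of Ndufb7 below. Ndufb6, Ndufb4 and Ndufb10 belong to the distal membrane arm, and Ndufc2 to its proximal part.

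Ndufb6 stood at 9.08, 8.96 and 9.41 in the naked mole-rat hearts. It was at 10.94, 11.75, 11.77, 10.53 and 11.36 in Damaraland, 10.74, 10.97 and 11.67 in the guinea pig and 11.21, 11.40 and 11.31 in the mouse. The naked mole-rat hearts were all below the lowest heart of the other species, and those 3 species overlapped. The differences were -2.12 (SE 0.26, adjusted p = 3.08e-06) from Damaraland, -1.98 (SE 0.29, adjusted p = 2.23e-05) from guinea pig and -2.16 (SE 0.29, adjusted p = 7.27e-06) from mouse. Its average contrast, -1.01, sat on the size threshold, and the Damaraland hearts did not differ from the outgroups by a called amount. That contrast was between -0.87 and -0.99 without naked mole-rat replicate 1 or 2, Damaraland replicate 1 or 4, guinea pig replicate 3 or mouse replicate 2.

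Ndufc2 was also lowest in the naked mole-rat, at 9.36, 9.29 and 8.60 in the naked mole-rat and 11.28, 11.44, 11.32, 10.88 and 10.33 in Damaraland. It was at 11.32, 10.85 and 11.60 in the guinea pig and 10.99, 11.10 and 11.09 in the mouse. Again no naked mole-rat heart reached the range of another species. The differences were -1.96 (SE 0.25, adjusted p = 3.46e-06), -2.17 (SE 0.28, adjusted p = 4.13e-06) and -1.98 (SE 0.28, adjusted p = 9.44e-06) from Damaraland, guinea pig and mouse. The average contrast of -1.09 became -0.97 without naked mole-rat replicate 3.

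Ndufab1, the mitochondrial acyl carrier protein, which binds the accessory subunits Ndufa6 and Ndufb9 and also serves fatty acid synthesis, was the only member called in all 6 heart pairs. Its values were 5.78, 5.87 and 5.97 in the naked mole-rat, 10.68, 9.27, 9.52, 8.58 and 8.27 in Damaraland, 11.81, 11.18 and 11.57 in the guinea pig and 12.65, 12.60 and 12.72 in the mouse. No 2 groups overlapped, and the order from low to high was naked mole-rat, Damaraland, guinea pig, mouse. The naked mole-rat hearts held 4, 8 and 2 reads, 14 in all. By summed scaled reads the level was 150-fold higher in Damaraland (95% counting interval 89.4 to 275), 628-fold in the guinea pig (374 to 1149) and 1361-fold in the mouse (811 to 2489). The intervals cover counting error only. The Damaraland hearts were also below the guinea pig and mouse hearts, with differences of -2.26 (SE 0.37, adjusted p = 5.10e-05) and -3.39 (SE 0.37, adjusted p = 4.75e-07). The step from guinea pig to mouse, -1.13 (SE 0.41, adjusted p = 0.0251), was the weakest: its adjusted p was 0.0933 without guinea pig replicate 2, 0.0518 without guinea pig replicate 3, 0.0547 without mouse replicate 1 and 0.0623 without mouse replicate 3.

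Ndufc1, a small membrane-arm subunit, was the other gene lower in both mole-rats than in both outgroups (2 genes in heart; background 2.62%). It stood at 10.17, 9.82 and 9.22 in the naked mole-rat and 9.58, 9.10, 8.96, 8.71 and 7.47 in Damaraland. It stood at 11.27, 11.19 and 10.61 in the guinea pig and 11.80, 11.86 and 11.90 in the mouse. Every mole-rat heart was below every outgroup heart. The differences were -1.29 (SE 0.38, adjusted p = 0.00805) and -2.11 (SE 0.38, adjusted p = 1.33e-04) for the naked mole-rat against guinea pig and mouse, and -2.26 (SE 0.34, adjusted p = 2.45e-05) and -3.09 (SE 0.34, adjusted p = 6.36e-07) for Damaraland. Ndufa10, a proximal subunit with a nucleoside-kinase-like fold, was lower on average, -1.27 (SE 0.15, adjusted p = 1.51e-06). In the naked mole-rat its distance from guinea pig, -0.93, did not reach the size threshold.

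Ndufb3 and Ndufb2, both distal membrane-arm subunits, were called in Damaraland hearts against each other species, in opposite directions (1 gene higher, background 3.86%, and 1 lower, 2.90%). Neither count exceeds its background share. Ndufb3 was at 11.95, 12.58, 12.98, 11.75 and 12.30 in Damaraland, against 11.52, 11.29 and 9.91 in the naked mole-rat, 10.92, 10.94 and 11.32 in the guinea pig and 10.78, 10.97 and 11.02 in the mouse. All Damaraland hearts were above all others. Naked mole-rat minus Damaraland was -1.41 (SE 0.31, adjusted p = 9.61e-04), and -0.91 without the shallow naked mole-rat replicate 3. Ndufb2 was at 9.96, 10.53, 10.54, 9.64 and 9.20 in Damaraland and 11.73, 11.68 and 9.96 in the naked mole-rat. Its guinea pig values were 11.45, 11.20 and 11.71 and its mouse values 11.49, 11.63 and 11.48. Naked mole-rat replicate 3 fell among the Damaraland hearts while the other two were with the outgroups, and the pair difference of 1.15 (SE 0.36, adjusted p = 0.0101) was lost without naked replicate 1 (0.85), naked replicate 2 (0.87) or Damaraland replicate 5 (0.96). Mouse hearts alone were higher in Ndufab1, Ndufb5, Ndufb9 and Ndufv3 (4 genes; background 6.60%).

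Ndufa4, a gene of the cytochrome c oxidase complex that is grouped here by its name, had 0 reads in all 7 naked mole-rat libraries. The 3 naked mole-rat hearts held 45713133 reads in all and the 4 livers 67602818. The other hearts stood at 13.47, 13.10, 12.86, 12.74 and 11.86 in Damaraland, 13.35, 12.94 and 13.86 in the guinea pig and 13.37, 13.52 and 13.60 in the mouse. With 3 reads over the group as the floor for the naked mole-rat, the level in heart was at least 7884-fold higher in Damaraland, 10909-fold in the guinea pig and 11402-fold in the mouse, and in liver at least 2522-fold, 5466-fold and 5898-fold. The reads that count are those the authors assigned to this gene, and whether the naked mole-rat reference holds the gene was not tested. In liver Damaraland was also below guinea pig and mouse, with differences of -1.07 (SE 0.18, adjusted p = 4.15e-05) and -1.24 (SE 0.20, adjusted p = 4.19e-05), the former -0.84 without guinea pig replicate 3. Leaving Ndufa4 out moved the median of the members in naked mole-rat minus mouse from -1.23 to -1.21 in heart and in naked minus Damaraland from 0.25 to 0.31 in liver.

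Ndufa4l2, the paralogue induced by low oxygen in other settings, was a low-count gene in every library. In heart it was at 7.19, 7.22 and 7.14 in the naked mole-rat, below every other heart, whose values ran from 7.38 to 8.31. No pair reached a difference of 1; naked mole-rat minus guinea pig was -0.92 (SE 0.16, adjusted p = 8.42e-05). In liver the groups overlapped in part, the mouse livers at 5.84 and 5.44 were below the rest, and no pair was called.

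In liver the mouse again stood highest, but the naked mole-rat did not stand lowest. By species mean, 22 of the 35 genes were highest in the mouse (26.3% of all genes), 13 were lowest in Damaraland (21.5%), 12 in the guinea pig (24.2%) and 8 in the naked mole-rat (24.96%). Damaraland was lower than mouse for 13 genes (18.4% of 10887) and higher for 1 (20.9%), with a median difference of -0.84. Guinea pig was lower than mouse for 8 (18.4%) and higher for 1 (18.8%), with a median of -0.67. Naked mole-rat against mouse gave 5 lower (20.1%) and 3 higher (21.1%), and against guinea pig 7 higher (19.4%) and 4 lower (18.5%). Against Damaraland it gave 10 higher (16.6%) and 2 lower (17.6%), with a median of 0.25. Damaraland against guinea pig gave 3 higher (19.1%) and 5 lower (17.1%), and the average contrast 1 higher (15.1%) and 4 lower (13.0%). For naked mole-rat against mouse, Damaraland against guinea pig and the average contrast, the counts in both directions were below the background shares.

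**Figure D3:**
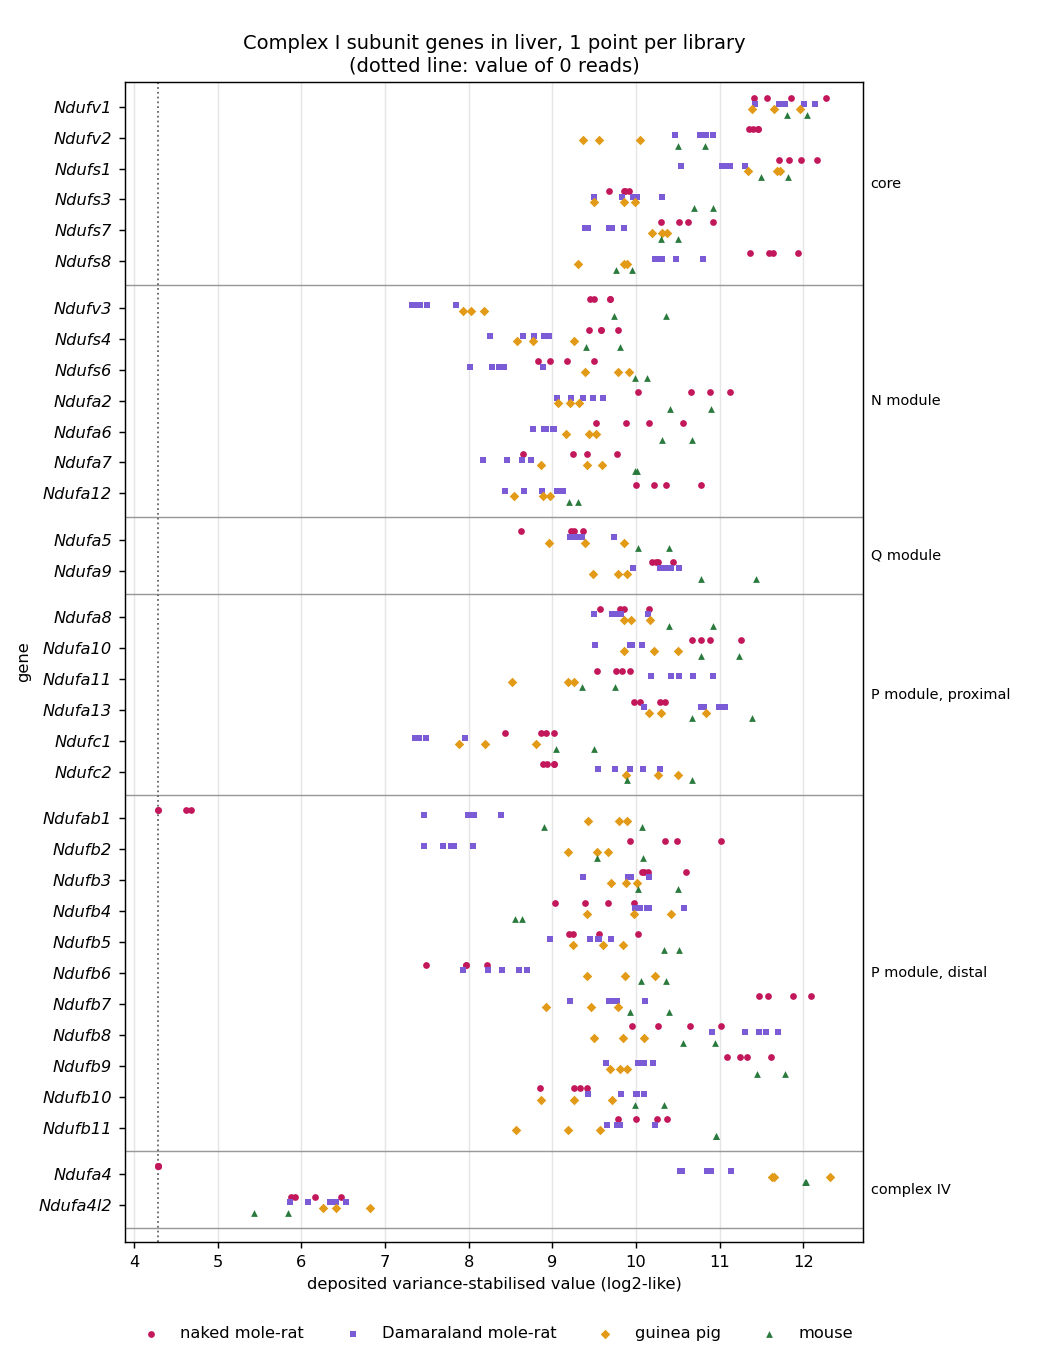
Deposited variance-stabilised value (log2-like) of 34 of the 35 genes in the 14 liver libraries, 1 point per library, grouped by module; the dotted line is the value of 0 reads. Mouse points lie to the right in most rows, and the naked mole-rat points stand right of all others for Ndufs8, Ndufv2, Ndufa12 and Ndufb7.

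Ndufs8, a core subunit with iron-sulphur clusters on the path to ubiquinone, was the core gene higher in naked mole-rat liver than in every other species. It stood at 11.64, 11.94, 11.36 and 11.60 in the naked mole-rat and 10.27, 10.48, 10.31, 10.80 and 10.22 in Damaraland. It stood at 9.89, 9.31 and 9.85 in the guinea pig and 9.95 and 9.76 in the mouse. Each naked mole-rat liver was above every other liver, and Damaraland livers were above both outgroups. The naked mole-rat exceeded Damaraland by 1.22 (SE 0.17, adjusted p = 4.88e-06), guinea pig by 1.95 (SE 0.19, adjusted p = 8.87e-08) and mouse by 1.78 (SE 0.21, adjusted p = 1.38e-06). Ndufv2, an iron-sulphur subunit of the N module, was lowest in the guinea pig, at 10.05, 9.37 and 9.56. It was at 10.76, 10.81, 10.84, 10.93 and 10.46 in Damaraland, 10.83 and 10.50 in the mouse and 11.35, 11.40, 11.46 and 11.46 in the naked mole-rat, which lay above all. It was called lower in the guinea pig than in each other species (1 gene; background 4.28%). The step to the mouse, -1.005 (SE 0.20, adjusted p = 4.38e-04), sat on the threshold: it was -0.86 and -0.95 without guinea pig replicates 2 and 3 and -0.84 without mouse replicate 1, and Damaraland minus guinea pig, 1.10 (SE 0.16, adjusted p = 1.41e-05), was 0.96 without guinea pig replicate 2. Ndufs1, Ndufs7 and Ndufv1 had no called pair in liver, with differences up to 0.91, 0.98 and 0.25 in size.

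Genes higher in naked mole-rat liver than in each other species were Ndufa12, Ndufb7 and Ndufs8 (3 genes; background 5.83%), and those lower were Ndufa4 and Ndufab1 (2 genes; 4.45%). Ndufb7, a cysteine-rich subunit on the intermembrane-space side, stood at 11.47, 11.88, 11.58 and 12.09 in the naked mole-rat, against 10.11, 9.73, 9.68, 9.77 and 9.21 in Damaraland. It stood at 9.78, 8.93 and 9.47 in the guinea pig and 9.93 and 10.39 in the mouse. Every naked mole-rat liver was above every other liver, and Damaraland overlapped both outgroups. The differences were 2.05 (SE 0.20, adjusted p = 1.05e-07) from Damaraland, 2.36 (SE 0.23, adjusted p = 1.02e-07) from guinea pig and 1.59 (SE 0.26, adjusted p = 4.55e-05) from mouse. Ndufa12 stood at 10.21, 10.36, 10.78 and 10.00 in the naked mole-rat, and all other livers were between 8.44 and 9.31. Its difference from mouse was 1.08 (SE 0.23, adjusted p = 4.89e-04), or 0.93 without naked mole-rat replicate 3.

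The genes lower in both mole-rats than in both outgroups in liver were Ndufa4, Ndufab1 and Ndufb6 (3 genes; background 2.87%). Ndufb6 stood at 7.48, 7.97, 7.97 and 8.22 in the naked mole-rat and 8.70, 8.23, 8.39, 8.60 and 7.93 in Damaraland. It was at 9.42, 9.87 and 10.23 in the guinea pig and 10.36 and 10.06 in the mouse. The mole-rat species overlapped each other, and all their livers were below all outgroup livers. The average contrast was -1.89 (SE 0.17, adjusted p = 2.49e-08). Ndufab1 held 1, 0, 0 and 2 reads in the naked mole-rat livers, 3 in all. The level by scaled reads was 317-fold higher in Damaraland (95% counting interval 108 to 1538), 1162-fold in the guinea pig (397 to 5639) and 955-fold in the mouse (326 to 4637). Damaraland livers, at 7.99, 8.01, 8.06, 8.39 and 7.47, differed from guinea pig livers by -1.72 (SE 0.24, adjusted p = 7.34e-06) and from mouse livers by -1.51 (SE 0.28, adjusted p = 1.42e-04), the latter -0.92 without mouse replicate 1.

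Damaraland liver was lowest in Ndufb2, called below each of the other 3 species (1 gene; background 3.30%), as in heart. It stood at 7.69, 7.83, 7.78, 8.05 and 7.47, against 9.93, 10.35, 11.02 and 10.49 in the naked mole-rat, 9.53, 9.19 and 9.67 in the guinea pig and 10.09 and 9.53 in the mouse. No Damaraland liver came near the range of another species. The differences were 2.68 (SE 0.20, adjusted p = 2.45e-09) for naked mole-rat minus Damaraland, -1.70 (SE 0.21, adjusted p = 2.27e-06) for Damaraland minus guinea pig and -2.05 (SE 0.25, adjusted p = 1.42e-06) for Damaraland minus mouse. Ndufs6, an N-module accessory subunit that binds zinc, was lower on average in the mole-rats, -1.12 (SE 0.15, adjusted p = 4.93e-06), with Damaraland the lower of the mole-rats: Damaraland differed from guinea pig by -1.30 (SE 0.20, adjusted p = 1.73e-05) and from mouse by -1.67, while naked mole-rat minus guinea pig was -0.58 and minus mouse -0.94, neither called. Ndufv3, named here after its values were seen, was at 7.33, 7.42, 7.38, 7.85 and 7.50 in Damaraland and 8.18, 7.93 and 8.03 in the guinea pig, against 9.50, 9.45, 9.69 and 9.69 in the naked mole-rat and 10.36 and 9.74 in the mouse. The first pair of species lay wholly below the second.

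Some calls recurred in both tissues with 1 sign. Naked mole-rat was below mouse in both for Ndufa4, Ndufab1, Ndufb6 and Ndufc2, 4 of the 22 genes lower in heart and of the 5 lower in liver. Damaraland was below mouse in both for Ndufa10, Ndufab1, Ndufb2, Ndufb9, Ndufc1 and Ndufv3, 6 of 8 in heart and of 13 in liver. Guinea pig was below mouse in both for Ndufa2, Ndufb11, Ndufb9, Ndufv2 and Ndufv3, 5 of 14 in heart and of 8 in liver. Between the mole-rats, Ndufa4 and Ndufab1 were lower in the naked mole-rat in both tissues, Ndufb2 was higher in both, and Ndufb7 was called in opposite directions. How many of all genes were called with 1 sign in both tissues is not given here. These counts can therefore not be read as particular to the subunit genes.

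The contrast of the mole-rats differed between heart and liver for most subunit genes. A joint fit (limma voom) on the recovered reads of both tissues, with the animal as a block, tested the heart difference minus the liver difference over 10109 genes; any factor that scales a gene's reads alike in both tissues of a species cancels in it. This test was chosen after seeing the data. For naked minus Damaraland, 20 of 35 genes were lower in heart than in liver (18.3% of all genes) and 0 were higher (19.2%), with a median of -1.09 against 0.03 for all genes. Leaving out each library in turn gave 16 to 22 genes. On the deposited values the heart difference was below the liver difference for 34 of 35 genes, against 49.5% of all 10109 genes, Ndufab1 being the exception. In 12 of them the sign itself differed, negative in heart and positive in liver, against 16.1% of all genes. The tissues were transformed separately, and for Ndufa4, at 0 reads in the naked mole-rat, both differences depend on the value of 0 reads.

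Ndufb7 had the largest such contrast. In heart it stood at 10.86, 11.01 and 10.91 in the naked mole-rat and 12.36, 12.61, 12.69, 11.29 and 12.46 in Damaraland, the reverse of its order in liver. The Damaraland hearts were all above the naked mole-rat hearts. The joint fit gave -1.39 in heart and 2.12 in liver, a difference of -3.50 (SE 0.34, adjusted p = 2.87e-09). For Ndufv3 the fitted values were -0.78 and 2.36, a difference of -3.14 (SE 0.38, adjusted p = 1.54e-07). By module, the contrast was lower in heart for all 7 N-module accessory genes and 8 of 11 distal P-module genes (background 18.3%). With the same background, it was lower for 3 of 7 core genes, 1 of 6 proximal P-module genes and 1 of 2 Q-module genes. The largest after Ndufb7 and Ndufv3 were -2.18 (SE 0.29, adjusted p = 8.00e-07) for Ndufa6, -2.14 (SE 0.31, adjusted p = 2.78e-06) for Ndufb4 and -2.12 (SE 0.29, adjusted p = 1.20e-06) for Ndufb11.

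**Figure D4:**
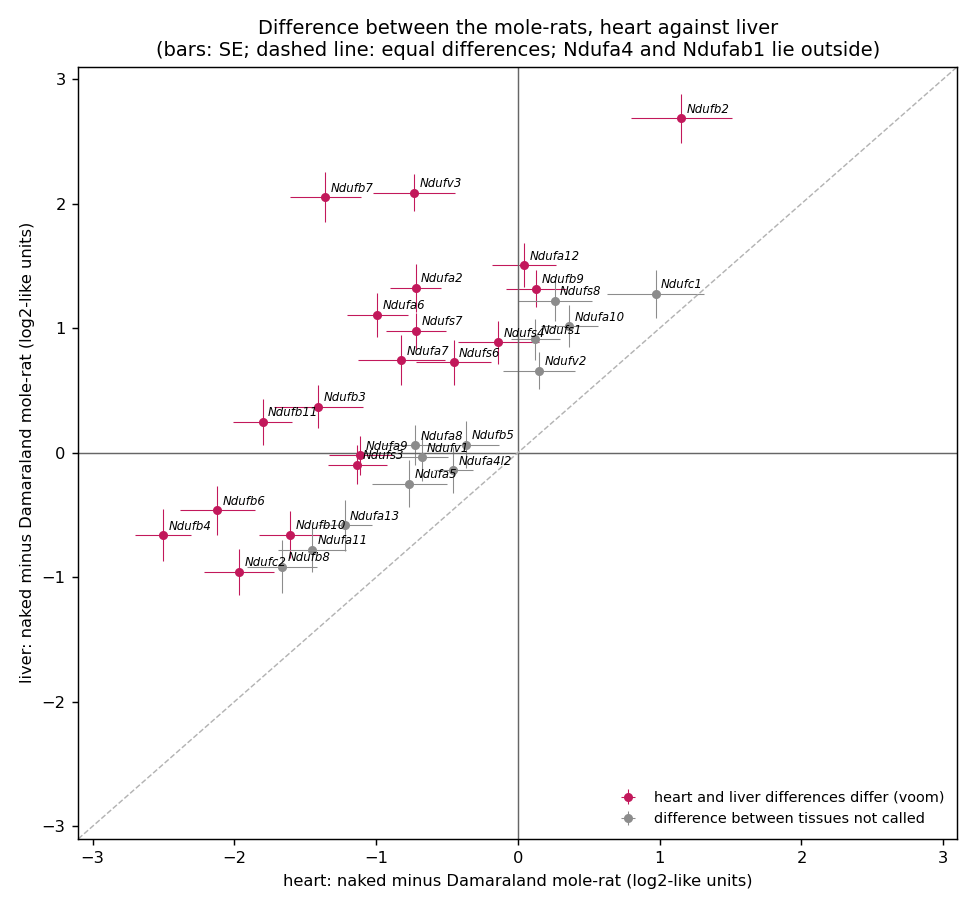
Naked minus Damaraland difference of the subunit genes in heart (horizontal) and liver (vertical), on the deposited log2-like scale, with limma standard errors as bars and the dashed line where both are equal. Ndufa4 and Ndufab1 lie outside the axes; all other genes shown lie above the dashed line, Ndufb7 and Ndufv3 far from it.

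The other joint contrasts moved in the same sense where the naked mole-rat was one side. Naked minus mouse was lower in heart than in liver for 15 genes (21.2%) and higher for 0 (19.8%), and naked minus guinea pig for 11 (19.5%) and 1 (19.1%), the exception being Ndufa5. Ndufb4, in the distal membrane arm, gave -3.12 (SE 0.39, adjusted p = 1.93e-07) for naked minus mouse: it stood at 8.59, 8.74 and 9.27 in naked mole-rat heart against 10.65, 10.83 and 10.66 in the mouse, and at 9.39, 9.67, 9.03 and 9.98 in naked mole-rat liver against 8.55 and 8.64. The naked mole-rat was lower in every heart and higher in every liver. Damaraland minus mouse was higher in heart for 9 genes (18.9%) and lower for 4 (21.6%), and Damaraland minus guinea pig for 7 (17.0%) and 1 (18.7%). Guinea pig minus mouse was higher for 0 (16.9%) and lower for 4 (19.1%), and the average contrast for 1 (14.2%) and 4 (16.7%). These contrasts share libraries.

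The neighbouring genes of respiration were described from lists drawn up from textbook membership. Of 39 nuclear subunits of complexes II to V in the tables, 23 were lower (background 20.2%) and 0 higher (18.0%) in naked mole-rat than mouse heart, with a median of -1.32, close to the -1.23 of the complex I genes. Between the mole-rats in heart, 12 were lower (15.2%) and 1 higher (14.2%) in the naked mole-rat (median -0.50), and in liver 11 of 38 were higher (16.6%) and 4 lower (17.6%; median 0.14). In the joint fit 19 of 38 were lower in heart than in liver for naked minus Damaraland (18.3%), and 0 were higher (19.2%). A difference between these lists and the complex I genes was not tested. Of 13 assembly factors, which build the complex and leave it, 1 was higher (18.0%) and 5 were lower (20.2%) in naked mole-rat than mouse heart: Foxred1 was higher by 1.26 (SE 0.17, adjusted p = 6.10e-06), and Timmdc1, Tmem70, Tmem126b, Tmem186 and Ndufaf6 were lower, with differences of -1.49 (SE 0.21, adjusted p = 7.80e-06) for Timmdc1 and -2.25 (SE 0.32, adjusted p = 1.09e-05) for Tmem70. Of 8 regulators of mitochondrial biogenesis 1 was higher and 1 lower in that comparison, with the same background shares.

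The subunits encoded in mitochondrial DNA did not follow the nuclear ones. All 6 measured were lower in Damaraland than in each other species in both tissues. In heart their summed scaled reads were 320 to 1578 in Damaraland, 846010 to 1218020 in the naked mole-rat, 213096 to 717835 in the guinea pig and 1037500 to 1319860 in the mouse. Reads of the mitochondrial genome as a whole made up 0.00565% to 0.0279% of Damaraland heart libraries against 22.7% to 26.9% of naked mole-rat hearts. Which mitochondrial sequences the Damaraland reads were matched to is not given in the sources used here, and the part of this share in the nuclear results was not tested; the shares given above leave those reads out.

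Markers of the tissues were present in every library. In heart the 8 cardiomyocyte markers, none at 0, summed to 745929 to 1159890 scaled reads in the naked mole-rat, 1523950 to 2145130 in Damaraland, 888962 to 1063010 in the guinea pig and 1116950 to 1212150 in the mouse, so the Damaraland hearts were highest. Hepatocyte markers, 6 of 8 in the tables and none at 0, summed in heart to 11187 to 31697 in the naked mole-rat, 3551 to 7074 in Damaraland, 3862 to 5567 in the guinea pig and 369 to 1229 in the mouse. In liver they summed to 1605070 to 2960420, 1616460 to 2239840, 905027 to 1576310 and 1151650 to 1322860 in that order. Fibroblast markers in heart, 5 of 6 in the tables and none at 0, were highest in the guinea pig, at 44008 to 117742, against 10598 to 23551 in the naked mole-rat, 10186 to 42902 in Damaraland and 7817 to 10419 in the mouse. Bile duct markers in liver, 5 of 6 in the tables and none at 0, summed to 2309 to 3226 in the naked mole-rat, 162 to 528 in Damaraland, 968 to 2184 in the guinea pig and 374 to 692 in the mouse. Other genes of mitochondrial content, 10 of 10 in the tables and none at 0, were also lowest in naked mole-rat hearts and highest in mouse hearts, but not highest in mouse livers. In heart they summed to 82843 to 100025 in the naked mole-rat, below every other heart, 123010 to 183151 in Damaraland, 113742 to 148939 in the guinea pig and 189816 to 198001 in the mouse, above every other heart. In liver they summed to 29522 to 34795 in the naked mole-rat, above every other liver, 16451 to 24237 in Damaraland, 22697 to 28677 in the guinea pig and 19319 to 23435 in the mouse. Endothelial markers in heart, 5 of 6 in the tables and none at 0, were lower in both mole-rats, at 6837 to 8709 and 7028 to 8117, than in the guinea pig, at 11578 to 15390, and the mouse, at 9067 to 11374. Leukocyte markers in heart, 5 of 6 in the tables, summed to 212 to 515 in the naked mole-rat, with Cd79a at 0 in at least 1 heart, 600 to 972 in Damaraland, with Cd3e at 0 in at least 1 heart, 518 to 784 in the guinea pig and 840 to 1119 in the mouse. The part of these differences in the subunit results was not tested.

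The spread among animals was uneven. In Damaraland hearts the median SD of the 35 genes was 0.451 against 0.257 over all genes, and 30 of the 35 were lowest in replicate 4 (17 genes, against 24.0% of all genes) or replicate 5 (13 genes, 27.2%). Without replicate 4 the genes called between naked and Damaraland heart were 18, and without replicate 5 they were 16, as with all hearts. In Damaraland livers replicate 5 was lowest for 27 genes, against 30.2% of all genes. In mouse hearts the median SD was 0.0697, against 0.11 over all genes, and in guinea pig hearts 0.286 against 0.181. Single libraries stood out in other groups too. Guinea pig liver replicate 2 was lowest for 26 genes (39.9% of all genes), mouse heart replicate 1 for 24 (38.7%) and naked mole-rat liver replicate 1 for 20 (22.1%). Damaraland liver replicate 4 was highest for 22 (18.7%). The shallow naked mole-rat replicate 3 was lowest of its group for 19 of 34 genes, against 37.9% of all genes, and without it 17 genes were called against Damaraland and 21 against mouse.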

How the data were processed

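The authors deposited 1 table per tissue of variance-stabilised, log2-like values, with mouse gene identifiers as rows. The submitters' processing notes name cutadapt, Salmon 013.1, DESeq2 and GRCm38; the references of the other species, the assignment of genes across species and any length correction are not given in the sources used here. Of 13928 rows, 13921 matched a symbol, and 26 columns of other series were not used. Inverting the transform gave whole reads for 100% of values (within 0.001; largest deviation 8.8e-08 in heart, 1.4e-07 in liver).

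Each tissue was fitted alone with limma 3.58.1 in R 4.3.3: 1 coefficient per species, a variance trend and p-values adjusted by Benjamini-Hochberg for the 10667 heart and 10887 liver genes whose mean was at least 1 above the value of 0 reads. All 35 subunit genes passed this filter in both. A gene shifted in a species alone had to be called with 1 sign against each other species, and one shifted in both mole-rats in all 4 contrasts with an outgroup. The genes and lists were chosen with earlier results of these data known. Named genes were the core subunits (1 subunit gene is in all counts but is not reported here), Ndufa4, Ndufa4l2, genes shifted in both mole-rats, up to 3 per species and direction shifted in that species alone, and up to 5 in each direction by average contrast; other named genes were chosen after their values were seen.

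A joint limma voom fit of the recovered reads (10109 genes, animal as a block, consensus correlation 0.0433) compared heart with liver. Libraries of 1 species and tissue are separate animals by their labels, and their reads differed by at least 5.45 times the sampling noise. Deviations of same-numbered libraries of different species correlated at -0.261 to 0.301 in heart and -0.232 to 0.15 in liver. Differently numbered ones gave -0.229 to 0.231 and -0.283 to 0.326. Same-numbered hearts gave 0.0998, 0.0996 and 0.0842 for guinea pig with mouse, but -0.0372, -0.0169 and -0.0181 for naked mole-rat with mouse. With so few libraries per group these values cannot exclude a pairing by replicate number, and the main fits did not pair them. On simulated reads for the average contrast, 92% of 4-fold changes were called in heart (11069 genes) and 94% in liver (11291 genes). Of 2-fold changes 13% were called in heart and 21% in liver. The simulated reads had 1 mean per gene in all species, apart from the changed genes, and an assumed spread among animals. These rates are therefore not those of the real comparison. A 2-fold change moves the value by less than the size threshold of 1. Alternatives covered the size threshold, the filter, centring, quantile normalisation, the variance trend, sample weights, a replicate block, voom and leaving out each library.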

Additional observations from a re-analysis of the deposited data

Results flagged for a closer look

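The difference between species was itself different in heart and liver for part of the 35 subunit genes, by the joint test of the heart difference minus the liver difference. For naked minus Damaraland, 20 genes were lower in heart (background 18.3%) and 0 higher (19.2%). For naked minus guinea pig these counts were 11 (19.5%) and 1 (19.1%), and for naked minus mouse 15 (21.2%) and 0 (19.8%). Damaraland minus guinea pig gave 1 lower (18.7%) and 7 higher (17.0%), and Damaraland minus mouse 4 lower (21.6%) and 9 higher (18.9%). Guinea pig minus mouse gave 4 lower (19.1%) and 0 higher (16.9%), both below the background shares. Dixon's test compares the gap between the most extreme library and the next with the range of the group. It was run on the named genes and the share of reads in groups of 4 or 5 libraries and flagged 0 of 52 comparisons. With so few libraries it flags only very wide gaps, so it cannot show that no library stood apart. Damaraland liver replicate 5, not flagged, was lowest of its group for 27 genes (30.2% of all genes).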

How the results depend on the processing

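Without the size threshold, counts of called genes in heart rose to 22 for the average contrast, 26 for naked minus Damaraland, 16 for naked minus guinea pig, 20 for Damaraland minus guinea pig, 17 for Damaraland minus mouse, 4 for both mole-rats, 4 for Damaraland alone, 4 for guinea pig alone and 8 for mouse alone. In liver, in the order average, naked minus Damaraland, guinea pig and mouse, Damaraland minus guinea pig and mouse, and guinea pig minus mouse, they were 21, 25, 21, 21, 18, 26 and 20, and for both mole-rats, naked, Damaraland, guinea pig and mouse alone 5, 9, 10, 4 and 9. In the joint fit they were 14 for the average contrast and 14 for Damaraland minus guinea pig. The share of all genes called without the size threshold is not given here, so these counts cannot be read as particular to the subunit genes. A filter on every species' mean, which drops Ndufa4 and Ndufab1, left 1 heart gene and 1 liver gene for both mole-rats, 3 in the liver average contrast and 3 for naked alone in liver. Mouse alone in heart gave 1 gene after quantile normalisation and 2 with sample weights. Guinea pig alone in liver gave 0 after centring and 0 after quantile normalisation; the cause was not tested.

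With the replicate number as a block, heart gave 1 gene for Damaraland alone and 2 for mouse alone, Ndufb2 in naked minus Damaraland was 0.78 (adjusted p = 0.0895 in limma), and no other count moved by over 1.5 times. Leaving out each library gave 1 to 3 genes for Damaraland alone (1 without naked mole-rat heart replicate 1 or 2 or Damaraland replicate 5) and 2 to 5 for mouse alone in heart (2 without guinea pig replicate 2 or 3 or mouse replicate 3). In liver it gave 0 to 1 for guinea pig alone (0 without guinea pig replicate 2 or 3 or mouse replicate 1) and 0 to 1 for mouse alone (1 without naked mole-rat replicate 3 or mouse replicate 1). In the joint fit it gave 4 to 8 for the average contrast (8 without guinea pig liver replicate 1), 7 to 16 for Damaraland minus mouse (7 without mouse liver replicate 2) and 0 to 6 for guinea pig minus mouse (0 without mouse liver replicate 2, 1 without mouse heart replicate 2 or guinea pig liver replicate 3, and 2 without guinea pig heart replicate 2, mouse heart replicate 3 or guinea pig liver replicate 1). Of 2093 values of named genes under other settings, 2041 kept direction and call, 52 lost the call and 0 reversed. On the deposited scale a 2-fold change from 10 scaled reads moves the value by 0.282 in heart and 0.392 in liver. From 1000 it moves the value by 0.946 and 0.973, under the size threshold, so calls leave out most such changes.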
